A study of Canis lupus familiaris with 33 samples.

Results

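Across 11 tissues of adult beagles, 3208 stretches of the autosomes of at least 5000 bases were covered by methylated-DNA peaks that overlapped into 1 unbroken region and that included a peak of every tissue. They were 0.712% of the 450791 regions left when the peaks of all tissues were merged on the 38 autosomes, and 2.64% of the 121528 regions with a peak in all tissues. Because they were wide, they held 26.0 Mb, which was 9.46% of all merged bases and 17.1% of the bases in regions shared by all tissues. The members were chosen by measured values, namely the width of the merged region and the presence of at least 1 base of a peak in each of the 11 lists, so their width and their presence in every tissue are descriptions and not results. Peak height and the place of the regions on the chromosomes were not part of that choice. The share that a tissue covered was part of it only in having to be above 0, but the same peaks set the ends of a region, and a wide region needs long or many peaks.

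The study measured DNA methylation in the brain (cerebrum and cerebellum), the digestive tract and its glands (stomach, colon, pancreas and liver), and the lung, kidney, spleen, ovary and mammary gland of normal beagles, a laboratory dog breed. Genomic DNA sheared to about 300 bases was captured with a methyl-CpG-binding domain (MBD) protein on beads, and the fractions released by 600 and 800 mM salt, after washes at 200, 300 and 400 mM, were sequenced. There were 22 MBD libraries, 2 of different dogs for a tissue, and 11 input libraries of uncaptured DNA, but a tissue had a single list of peaks. All tissues had an MBD library of 1 dog, called animal A here, whose titles have the form MBD_KI_679. The second was of jj8 in 7 tissues, of jj82 in colon and stomach and of a further dog (titles such as MBD_OV_244) in ovary and mammary gland. The input was of animal A in ovary, pancreas, kidney and mammary gland, and of jj8 in the other 7. The labels named 3 dogs, 1 male and 2 female, while the titles held 4 identifiers, and jj8 was male in its MBD libraries and female in its inputs. Each tissue was a bulk sample of all its cell types. With 1 list a tissue there was no replicate spread within a tissue, tissues were the units of every comparison, and read depth was unknown.

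In mammals DNA methylation is placed mostly on the cytosine of CpG dinucleotides, and most CpGs of the genome are methylated in adult tissues apart from those in CpG islands at active promoters. An MBD protein binds DNA with several methylated CpGs close together, and elution at high salt keeps the densest fragments, so a peak marks DNA that is both methylated and rich in CpGs. A wide region is a union of such peaks over all lists, and its CpG content was not analysed here. In dogs, whose autosomes have the centromere near one end, CpG-rich sequence and genes are known to be concentrated toward some chromosome ends. Coordinates below are those of the lists, on the build CanFam3.1 of the submitters' processing notes. Genes and sequence at these coordinates were not analysed here.

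The median width was 6824.5 bases, 90% of the regions were shorter than 12386 bases and 1046 of them were under 6000 bases. At the long end 590 regions reached 10000 bases, 177 reached 15000, 70 reached 20000 and 10 reached 30000. The other 118320 regions with a peak in all tissues had a median width of 776 bases. Near the threshold, the narrowest members were chr20:54669072-54674071 (5000 bases), chr31:37024430-37029431 (5002 bases) and chr16:19871934-19876937 (5004 bases). The widest regions left out were chr2:80708053-80713051 (4999 bases), chr9:6565645-6570642 (4998 bases) and chr18:2720256-2725253 (4998 bases). The median over tissues of the highest fold in a region, each fold divided by the median fold of its list (the relative fold below), was 3.68, 3.04 and 2.77 in the 3 just inside and 2.53, 3.38 and 2.57 in the 3 just outside. The set had no natural edge there, as 1867 shared regions had at least 4000 and under 5000 bases.

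Both values that the rule used can be set side by side, as a description. Of 3209 autosomal regions of 5000 bases or more, 3208 had a peak in every tissue. Of the 121528 regions with a peak in every tissue, 2.64% were that wide. The single wide region outside the set was chr10:20051704-20057456 (5753 bases), which had a peak in 10 tissues and none in cerebellum. A region merged from 11 lists is wider the more lists cover it, so width and presence were not independent measures.

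The widest region was chr25:49356457-49415493, 59037 bases long and 2.21 Mb before the last peak of its chromosome. Its peaks covered between 95.4% of it in cerebellum and 99.6% in lung, with 2 peaks in lung, 3 in mammary gland, 4 in kidney, 6 in cerebrum, colon and spleen, 7 in ovary, pancreas and stomach, 9 in liver and 14 in cerebellum. A single lung peak, chr25:49369962-49415439, was 45478 bases long and was the widest of any tissue in these regions. So the same sequence was a nearly unbroken run in lung and the same run cut by short gaps in cerebellum. The next widest were chr24:46986974-47031144 (44171 bases), chr16:54332420-54372617 (40198 bases) and chr18:1910073-1949095 (39023 bases). The one on chromosome 16 was a single peak in mammary gland that spanned 99.9% of it, against 7 peaks in cerebrum, spleen and stomach. The remaining 6 of the 10 widest were chr24:45895970-45931943 (35974 bases), chr38:23532897-23567091 (34195 bases), chr26:38674008-38707883 (33876 bases), chr38:22057019-22090830 (33812 bases), chr28:40465054-40496318 (31265 bases) and chr38:22010864-22041334 (30471 bases). All of the 10 but those on chromosomes 16 and 18 ended within 2.21 Mb of the last peak of the chromosome, the distances of these 2 being 5.22 and 53.9 Mb. The one on chromosome 18 lay near the other end of its chromosome, as its coordinates show. Mammary gland had the highest relative fold of the 11 tissues in 9 of the 10, between 6.80 and 8.02, and lung in chr38:22057019-22090830, at 4.77. Ovary had the lowest in 8 of the 10.

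**Figure D1:**
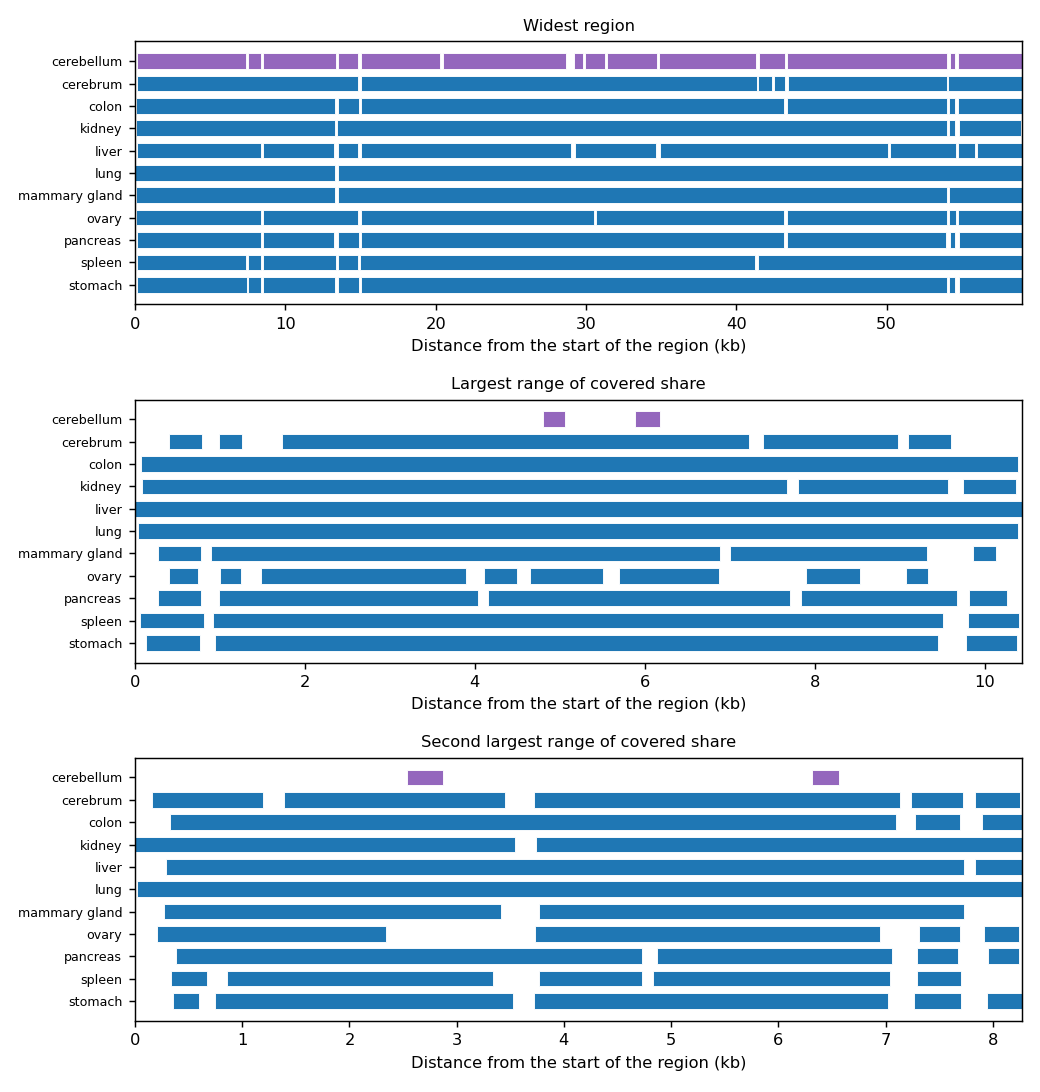
Peaks of each tissue (rows) along the widest region and along the 2 regions with the largest range of covered share, with distance from the region's start in kb on the horizontal axis. Each bar is 1 peak and cerebellum is in purple. The widest region was covered for 95.4% or more in each tissue, while cerebellum covered 5.19% and 7.18% of the other 2.

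The wide regions lay toward the chromosome ends. Distance was measured to the end of the last peak of any list on the chromosome, since chromosome lengths were not used here. Of the 3208 regions, 1714 (53.4%, 95% Wilson interval 51.7 to 55.1%) fell in the last 10 Mb, which made up 17.2% of the autosomal length. Of the other regions shared by all tissues 27.7% did (interval 27.5 to 28.0%). In the last 2 Mb, 3.45% of the length, the shares were 32.0% of the wide regions and 8.01% of the others. The median distance was 5.64 Mb for wide regions and 27.0 Mb for the others. In the first 10 Mb the shares were 20.7% and 19.5%, and in the first 5 Mb, 8.62% of the length, they were 17.4% (interval 16.2 to 18.8%) and 11.96% (11.8 to 12.1%). In the last 5 Mb, of the same length, they were 48.2% and 17.1%. The intervals cover counting error only and neighbouring regions are not independent, so no test was made of these shares.

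Density fell steeply with distance from the end. The last 0.5 Mb held 16.3 wide regions per Mb, 11.2 times the autosomal mean of 1.46 per Mb, and the other shared regions stood there at 2.45 times their own mean. Between 3 and 5 Mb from the end the wide regions were at 2.30 times their mean, between 5 and 7.5 Mb at 0.875 times, and between 15 and 20 Mb at 0.0542 times, when the others were at 0.653 times. From 40 to 60 Mb both kinds were near their means (1.03 and 0.998 times), and from 60 to 80 Mb the wide regions were at 0.794 times and the others at 1.05 times. Among the shared regions of the last 0.5 Mb, 11.1% were wide, against 0.225% at 15 to 20 Mb. Width followed the same direction, as 60% of the 590 regions of 10000 bases or more were in the last 10 Mb and 51.9% of the narrower ones, with median distances of 2.59 and 7.05 Mb.

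**Figure D2:**
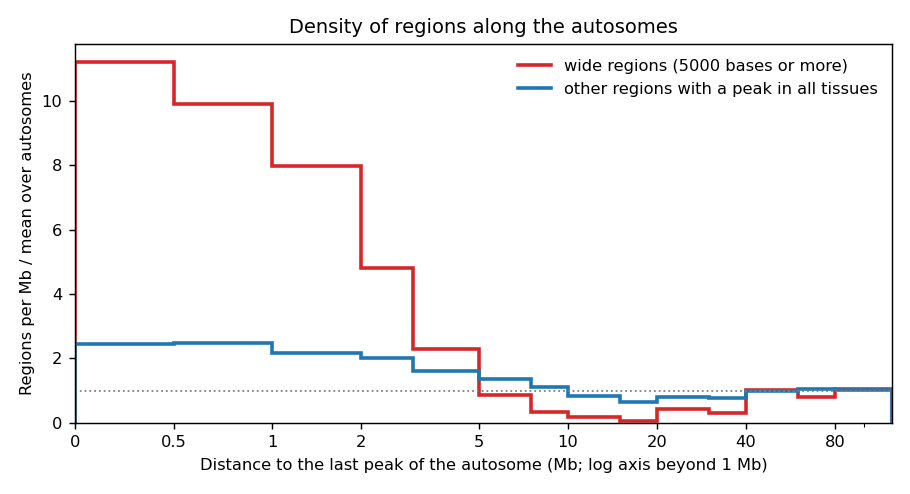
Regions per Mb divided by their autosomal mean (vertical axis) against the distance to the last peak of the autosome in Mb (horizontal axis, logarithmic beyond 1 Mb). The line of wide regions starts at 11.2 and the line of other regions with a peak in all tissues at 2.45, and both reach their lowest value between 15 and 20 Mb.

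Chromosomes differed in where and how densely they carried wide regions. On 23 of the 38 autosomes more than 50% of the wide regions were in the last 10 Mb, and on 7 (chromosomes 7, 9, 15, 17, 22, 27 and 35) in the first 10 Mb. On chromosomes 4, 6, 10, 13 and 32 more than 50% lay in between, and on 5, 16 and 18 no such portion held over 50%. On 28 of the 38 the share in the last 10 Mb was larger for wide regions than for the other shared regions. The densest was chromosome 31 with 3.76 per Mb, where all 150 regions were in the last 10 Mb. Chromosome 24 had 3.54 per Mb, with 167 of 169 in the last 10 Mb, and chromosome 28 had 3.42 per Mb, with all 141 there. Chromosome 10 had 3.00 per Mb, but 36 of its 208 regions were in the last 10 Mb and 5 in the first. Chromosome 17 carried 110 of 112 in its first 10 Mb, and chromosome 13 none of its 145 in either outer portion. The sparsest was chromosome 32, which had 1 wide region (0.0258 per Mb) beside 876 other shared regions, followed by chromosome 21 with 0.334 and chromosome 14 with 0.410 per Mb.

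The regions came in clusters. The gap from one region to the next had a median of 15.8 kb against 687 kb for even spacing, and 40.9% of the 3170 distances between neighbours on a chromosome were under 10 kb. Of the 2220 windows of 1 Mb along the autosomes, 422 (19.01%) held a wide region, and the 106 (4.77%) with 10 or more held 2310 of them (72.0%). The fullest window, chr24:46000001-47000000, held 54 that filled 455 kb, and chr28:40000001-41000000 held 53 that filled 565 kb, more than 50% of the window. Joining neighbours up to 100 kb apart gave 701 blocks, 357 of them single regions, and the 80 blocks of 10 or more held 60.5% of the regions. The largest blocks were chr24:45252115-47629041 with 122 regions, chr28:38941457-41050239 with 104 and chr10:17210751-19292661 with 98, and wide regions filled 46.8%, 49.2% and 38.1% of them. The first 2 blocks reached to within 0.0693 and 0.132 Mb of the last peak of their chromosome, whereas that on chromosome 10 ended 50.04 Mb before it.

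Most of the sequence in wide regions was in a peak in every tissue. Of the bases, 76.4% (19.9 Mb) were covered in all 11 lists, 8.84% in 10, 3.03% in 9 and between 1.24% and 1.99% in each smaller number of lists, with 1.38% in 1 list alone. Each of the 3208 regions had at least 1 base common to all tissues. The rule did not ask for such a base, but high covered shares in all tissues make it likely. The common share of a region had a median of 77.8%, with 53.3% and 92.0% at the 10th and 90th percentiles. The longest unbroken run common to all tissues had a median of 2811 bases and reached 19670 bases, and in 507 regions (15.8%) it alone was 5000 bases or more. In 3058 regions (95.3%) every tissue covered 50% or more, and in 1937 (60.4%) every tissue covered 80% or more.

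Where a run of bases lacked a peak in 1 tissue only, that tissue was mostly cerebellum, the hindbrain part whose cells are mainly granule neurons. Of 763 such runs of 500 bases or more, 572 (74.97%, Wilson interval 71.8 to 77.9%) lacked cerebellum and 152 (19.9%) ovary. Spleen was lacking in 29, lung and pancreas in 3 each, colon in 2, kidney and mammary gland in 1 each, and cerebrum, liver and stomach in none. The cerebellum runs lay in 411 regions, so they were not independent, and the interval covers counting error only. No count of such runs in the other shared regions is given here, so these shares have no background beside them. Over all bases that lacked 1 tissue only, whatever the length of the run, cerebellum had a smaller share, 56.1%, followed by ovary (16.0%), spleen (8.85%), pancreas (5.49%) and stomach (4.10%). With a minimum of 250 bases cerebellum had 66.5% of 2554 runs, and with 1000 bases 84.6% of 123. The longest was chr19:53114003-53116516, 2514 bases inside chr19:53109631-53118570, the longest lacking ovary was chr24:46401872-46403476 (1605 bases) and the longest lacking spleen chr20:55684142-55685460 (1319 bases). The opposite, a run of 500 bases or more covered in 1 tissue alone, occurred 18 times, 8 of them in cerebellum. Over all bases covered in 1 tissue alone, ovary had 24.2%, cerebrum 21.0% and cerebellum 15.4%. Cerebellum and ovary were also the longest lists, with 359065 and 370761 peaks, and had the lowest median relative folds in these regions (below). The part of list length or peak height in the missing runs was not tested.

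**Figure D3:**
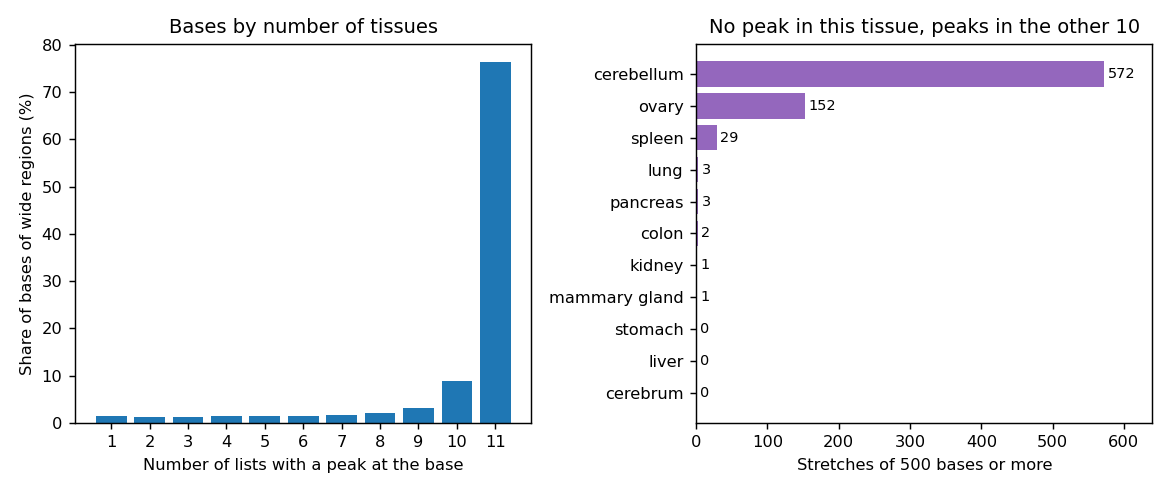
Left, share of the bases of wide regions (%) by the number of lists with a peak at the base. Right, number of runs of 500 bases or more without a peak in the named tissue and with a peak in the other 10, led by cerebellum (572) and ovary (152).

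In 150 wide regions some tissue covered under 50%, and in 128 of these it was cerebellum alone. In all, cerebellum covered under 50% of 135 regions (4.21%), ovary of 10, pancreas and stomach of 5, and each other tissue of 0 to 3. Over these 135 the median covered share was 37.4% in cerebellum and 91.6% in cerebrum, the other brain tissue, and the median of the other 10 tissues was 88.3%. Since the 135 were picked for low cerebellum coverage, these values describe them and test nothing. The same count over the other shared regions is not given here. Their highest relative fold in cerebellum had a median of 1.35, against 3.12 for the other 10 tissues, and it was the lowest of the 11 in 94 (69.6%). They had a median width of 6208 bases, 40% lay in the last 10 Mb, and they were spread over 29 autosomes, with 21 of the 150 wide regions of chromosome 9.

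The 5 wide regions with the largest range of covered share all had their lowest value in cerebellum. The first, chr10:20035795-20046239 (10445 bases), was covered for 5.19% in cerebellum, by 2 short peaks, for 60.8% in ovary and for 79.1% in cerebrum. The share was 87.1% in mammary gland, 89.7% in pancreas, 93.3% in stomach, 95.1% in spleen and 95.6% in kidney. This region was covered for 98.7% in colon, 99.2% in lung and 100% in liver. Its highest relative fold was 0.435 in cerebellum, below the median peak of that list, against 1.39 in cerebrum, 1.66 in ovary, 2.29 in mammary gland and 2.94 to 5.03 in the other 7. The wide region without any cerebellum peak, chr10:20051704-20057456, lies a few kb beyond its end. The second, chr8:67966919-67975195, was covered for 7.18% in cerebellum, 89.5% in cerebrum and 73.2% to 99.7% in the other 9. In chr9:2077220-2084437 the shares were 4.20% in cerebellum, 93.9% in cerebrum and 54.4% to 88.2% in the others, and in chr9:50238267-50243825 they were 7.83%, 86.4% and 58.7% to 96.9%. In chr26:29160806-29166636 cerebellum covered 11.3%, cerebrum 96.9% and the others 71.3% to 99.97%. The relative fold in cerebellum was between 0.435 and 0.671 in these 5 regions, and in cerebrum between 1.39 and 2.95.

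Over all 3208 regions the mean covered share was lowest in cerebellum and highest in cerebrum. It was 85.9% in cerebellum, 88.2% in pancreas, 88.3% in stomach, 88.8% in spleen, 89.7% in colon, 92.4% in mammary gland, 92.6% in ovary, 92.7% in liver, 94.4% in lung, 95.2% in kidney and 95.4% in cerebrum. The SD over regions, which are not replicates, was 15.4 percentage points in cerebellum and 5.26 to 8.80 in the others. Not every measure of coverage put cerebellum last. Its median over regions was 91.5%, above stomach (90.31%), pancreas (90.32%) and spleen (90.7%), and it covered 90% or more of 1761 regions, against 1644 in pancreas, 1653 in stomach and 1714 in spleen. Cerebrum was first by the median too, at 97.01%. Cerebellum was the least covered tissue in 1108 regions and cerebrum in 21. Over the other shared regions the mean share was lower in each of the 11 tissues, between 68.9% in pancreas and 87.7% in ovary. There cerebellum was at 78.2%.

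The number of peaks that made up the same regions varied from 6093 in cerebrum and 6186 in kidney to 10539 in stomach and 10631 in pancreas. Between these lay lung (6600), ovary (7029), mammary gland (7531), liver (8327), colon (9514), cerebellum (9762) and spleen (10295). Per 10 kb of region this was 2.34 peaks in cerebrum and 4.08 in pancreas, with a median of 3.20 over tissues. A single peak spanned 90% or more of a region in 46.1% of the regions in cerebrum, 43.4% in kidney and 39.7% in lung, but in 14.1% in stomach, 14.6% in pancreas and 14.7% in spleen. In 120 regions (3.74%) every tissue had such a peak, and in 699 (21.8%) none had.

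Peak number went with a property of the lists. The shortest peak of a list was 175 to 192 bases in stomach, spleen, pancreas, liver, colon and cerebellum, and 210 to 218 bases in ovary, mammary gland, lung, kidney and cerebrum. The first 6 tissues had 8327 to 10631 peaks in the wide regions and the other 5 had 6093 to 7531, so the ranges did not overlap. The covered shares were 85.9% to 92.7% in the first class and 92.4% to 95.4% in the second, where liver alone of the first class reached into the second. The median peak width inside wide regions was 1326 bases in pancreas and 3394 bases in cerebrum, at the ends of the 2 classes. Tissue and class cannot be told apart, since a tissue had 1 list.

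**Figure D4:**
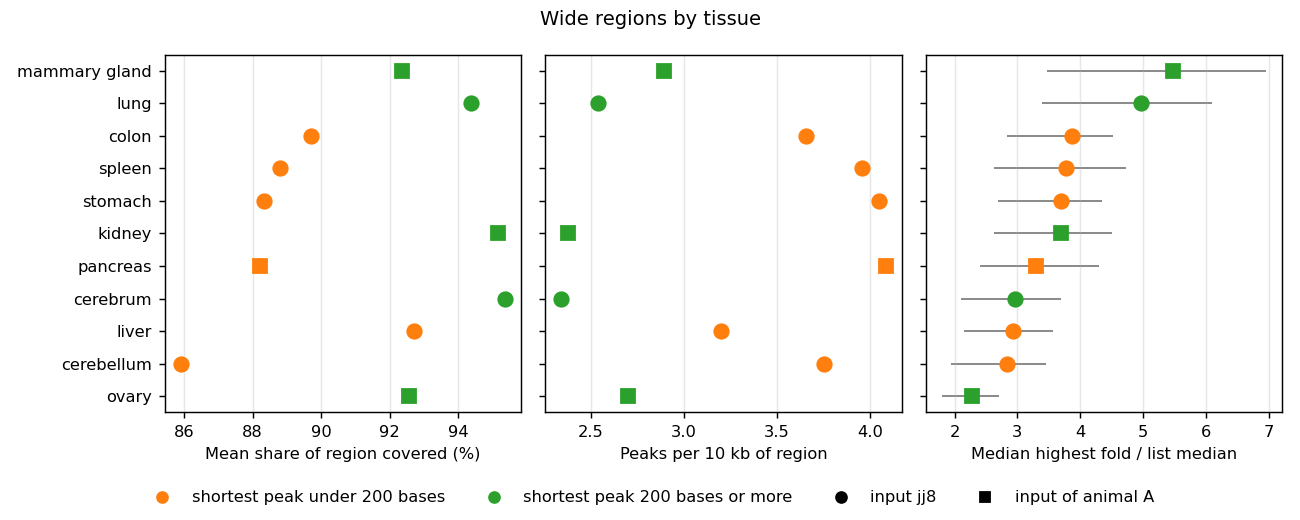
Mean covered share (%), peaks per 10 kb and median highest fold divided by the list median over the 3208 wide regions, with 1 point a tissue (rows), colour for the class of shortest peak and shape for the animal of the input library. Grey lines in the right panel run from the 10th to the 90th percentile over regions. The 2 classes separate in peaks per 10 kb, and mammary gland and lung lead the right panel.

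The tallest peak of a wide region was usually high in its list. The median relative fold was 5.49 in mammary gland, 4.97 in lung, 3.87 in colon, 3.78 in spleen, 3.70 in stomach and in kidney, 3.30 in pancreas, 2.96 in cerebrum, 2.94 in liver, 2.83 in cerebellum and 2.28 in ovary. Over the other shared regions it was 1.40 in pancreas to 1.52 in cerebellum. In 3161 wide regions (98.5%) the highest fold was above the list median in every tissue. As a fold not divided by the list median, the values ran from 14.9 in ovary to 37.8 in mammary gland, and the median −log10 p-value of the tallest peaks ran from 68.8 to 291 in the same tissues. The highest fold is a maximum, and a wide region offered more sequence for it than a narrow one.

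Mammary gland had the highest relative fold of the 11 tissues in 1967 regions (61.3%) and lung in 973 (30.3%), together 91.6%. In the other shared regions the same tissues were highest in 15.4% and 12.5%, and cerebellum in 15.7%. Ovary was lowest in 1726 wide regions (53.8%) and in 14.8% of the other shared regions. Cerebellum was lowest in 15.5% and 15.003%, cerebrum in 10.8% and 7.54% and liver in 10.2% and 9.48%. As a percentile within its own list, however, the median tallest peak lay between 96.5 in ovary and 97.8 in kidney, lung (97.7) was second after kidney and mammary gland was at 97.4. In the 70 regions of 20000 bases or more lung was first by percentile (99.6), with mammary gland at 99.5 and ovary at 98.2. Across the 11 tissues longer lists had lower relative folds (Pearson's r −0.73, Spearman's rho −0.77, a description over lists that share animals). Whether list length or depth played a part in the order of tissues was not tested.

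From 500 bases upward the tissues spread apart in relative fold as regions widened. In shared regions under 500 bases the median relative fold differed 1.32 times between the highest and the lowest tissue. In shared regions of 500 up to 1000 bases it differed 1.10 times, in those of 1000 up to 2000 bases 1.24 times and in those of 2000 up to 5000 bases 1.78 times. It differed 2.34 times from 5000 up to 10000 bases, 2.63 times from there up to 20000 bases and 2.76 times in the 70 regions of 20000 bases or more. Mammary gland went from 1.32 at 500 up to 1000 bases through 5.31 at 5000 up to 10000 bases to 6.77 in the widest class, and lung from 1.42 through 4.84 to 5.99. Ovary went from 1.46 through 2.27 to 2.45. By percentile within the list the tissues ranged from 66.1 to 77.1 at 500 up to 1000 bases. The range was 96.3 to 97.5 at 5000 up to 10000 bases and 98.2 to 99.6 in the widest class. A percentile has an upper limit, so this range had to narrow as all tissues neared it. Among the wide regions themselves, width and median relative fold had a Spearman's rho of 0.43 over 3208 regions, which are not independent.

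**Figure D5:**
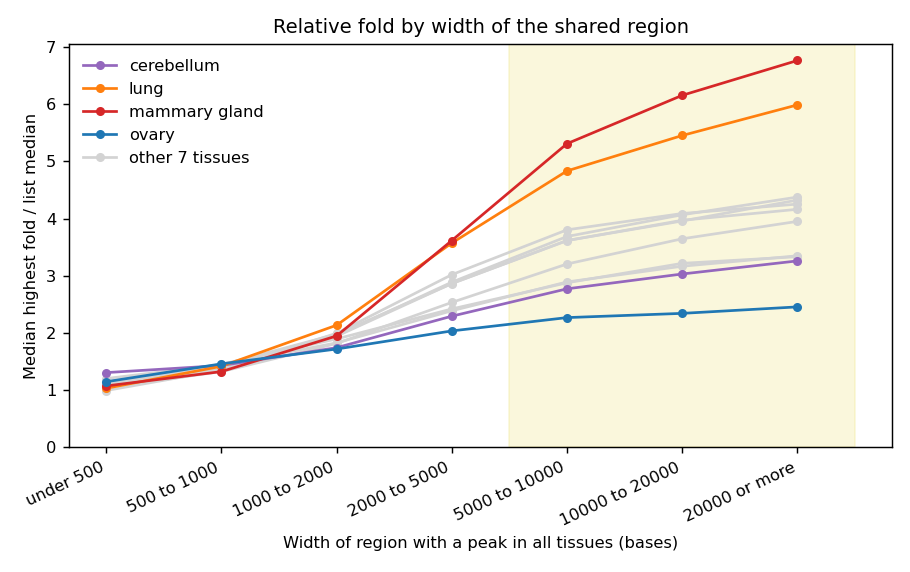
Median highest fold divided by the list median (vertical axis) by width of the shared region in bases (horizontal axis), with 1 line a tissue and wide regions shaded. Mammary gland and lung rise to 6.77 and 5.99 in the widest class and ovary to 2.45.

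At the upper end of the relative fold stood chr29:39009235-39020604 (11370 bases), with a median over tissues of 4.70, from 2.63 in ovary to 7.35 in mammary gland. It was followed by chr15:6670328-6676622 (4.70), chr2:33827556-33840783 (4.64), chr25:49815031-49823271 (4.62) and chr12:72343485-72352065 (4.60), all highest in mammary gland. At the lower end stood chr9:51039572-51044814 (5243 bases), with a median of 1.68, from 0.911 in pancreas to 2.47 in cerebrum. The others were chr14:47712338-47717588 (1.69), chr7:2637743-2642940 (1.79), chr2:30740145-30745606 (1.80) and chr5:67029264-67034921 (1.83). Mammary gland was the highest tissue in none of these 5, where ovary led 2 and cerebrum, cerebellum and liver 1 each. All 5 were under 6000 bases long and more than 10 Mb from the last peak of their chromosome. That on chromosome 7 lay near the other end, in the first 10 Mb.

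The values by tissue were also compared inside and outside the last 10 Mb, without a test. In the last 10 Mb the median width was 7002 bases and elsewhere 6648.5 bases, and the median over tissues of relative fold was 3.53 and 3.40. Mean covered share was 87.4% in the last 10 Mb and 84.2% elsewhere in cerebellum, and 95.7% and 94.95% in cerebrum. The share was higher in the last 10 Mb in 9 of 11 tissues, not in liver or lung. Relative fold was 5.70 and 5.26 in mammary gland, and 2.27 and 2.30 in ovary, the 1 tissue of 11 in which it was lower in the last 10 Mb. Peaks per 10 kb were fewer in the last 10 Mb in all 11 tissues, with 3.88 against 4.34 in pancreas, 3.72 against 4.25 in spleen, 2.20 against 2.51 in cerebrum and 2.51 against 2.56 in lung.

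A region ends at the outermost peak end of any list, so coverage had to fall toward its edges. Averaged over tissues, 94.7% of the regions were covered at their midpoint and 63.3% at the outermost 2% of their length on either side. Cerebellum was lowest at the midpoint, at 89.4%. The tissues did not share 1 summit. The top summits of a median of 5 of the 11 tissues lay within 500 bases of the median summit of the region, 6 or more did in 1503 regions (46.9%), and all 11 did in 24. The share of regions with the top summit that close was largest in lung (57.7%) and mammary gland (56.0%), and smallest in ovary (33.2%) and liver (34.0%).

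The tissues were compared by the animal of the input library and by brain against the rest, with exact two-sided permutation tests over tissues and Benjamini-Hochberg adjustment over these 6 tests. Neither split showed a difference beyond the spread between tissues. Ovary and mammary gland, the tissues with an MBD library of the further dog, both had the input of animal A. Input animal and second MBD dog therefore cannot be fully told apart. All tissues had an MBD library of animal A, so they were not independent units, which the p-values assume. The mean covered share was 92.1% ± 2.88 (SD, n = 4 tissues) with the input of animal A and 90.7% ± 3.48 (n = 7) with that of jj8 (exact permutation p = 0.518, adjusted 0.864). Peaks per 10 kb were 3.01 ± 0.745 and 3.36 ± 0.685 (exact permutation p = 0.458, adjusted 0.864), and relative fold was 3.69 ± 1.34 and 3.58 ± 0.757 (exact permutation p = 0.864, adjusted 0.864). Within the classes of shortest peak the differences of the first 2 measures, animal A minus jj8, had the opposite sign: −0.885 and −1.50 percentage points of covered share in the shorter and longer class, and 0.363 and 0.219 peaks per 10 kb. Relative fold turned likewise, from 0.113 to −0.125 and −0.144. In the shorter class pancreas was the only tissue with the input of animal A, so those values set 1 tissue against 5, and the longer class set 3 against 2.

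Brain, cerebrum with cerebellum, had a mean covered share of 90.6% ± 6.69 (n = 2) and the other tissues 91.4% ± 2.65 (n = 9; exact permutation p = 0.8, adjusted 0.864). By this mean the 2 brain tissues were the highest and the lowest of the 11, although by the median over regions stomach, pancreas and spleen were below cerebellum, and without cerebellum the difference turned from −0.721 to 4.01 percentage points, whereas without cerebrum it was −5.45. Relative to the other shared regions of each tissue the difference was −6.01 (exact permutation p = 0.127). Peaks per 10 kb were 3.05 ± 0.997 in brain and 3.27 ± 0.680 elsewhere (exact permutation p = 0.636, adjusted 0.864), and without cerebrum the difference turned from −0.226 to 0.478. Relative fold was 2.90 ± 0.0866 in brain and 3.78 ± 0.971 elsewhere (exact permutation p = 0.255, adjusted 0.864), with both brain tissues among the 4 lowest. The difference was −0.682 and −1.15 within the 2 classes of shortest peak, each of which held 1 brain tissue. The smallest p these designs allow is 0.00303 for 4 against 7 and 0.0182 for 2 against 9. With 1 brain tissue left out it is 0.1, and within the classes of shortest peak it is between 0.1 and 0.2, so those comparisons could not pass the threshold.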

How the data were processed

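MBD-seq peak lists of 11 dog tissues were analysed, 1 list a tissue, each labelled for 2 MBD libraries. The lists had no header. What each column holds was taken from the narrow-peak layout and checked on the values. The fold of each peak is a ratio that the authors deposited, and its control is not given in the sources used here. The −log10 p-value of each peak was used as deposited by the authors, and the summit offset likewise. The build CanFam3.1 comes from the submitters' processing notes. The aligner, the peak caller, the filters and the way in which 2 libraries gave 1 list are not given in the sources used here. Peaks called from pooled libraries, or kept for agreement between libraries, would differ in number and width, and folds of separate lists are comparable only relative to each list, so each was divided by its list median.

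Peaks of all lists on the 38 autosomes were merged where they overlapped by at least 1 base, and regions of at least 5000 bases with a peak in 11 lists were kept. The wide regions and the regions named in the text were chosen with earlier results of these data known. Regions named are the 10 widest, the 5 highest and 5 lowest in median relative fold, the 5 with the largest range of covered share and the 3 on each side of 5000 bases, and the longest runs, blocks and windows were named after their values were seen. Groups came from titles. Per tissue, the mean covered share, peaks per 10 kb and median relative fold were tested by two-sided exact permutation over tissues, with adjustment over 6 tests. Wilson intervals (95%) cover counting error only. Alternatives were other widths, overlaps, list sizes, presence rules and end lengths, and each tissue left out. Restriction to a class of shortest peak, and other minimum runs, were added after the data were seen. No gene was assigned, since the annotation at hand was of another build. Scripts, in Python 3.11.15 with numpy 2.4.6, pandas 2.3.3 and scipy 1.17.1, were tested on simulated lists.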

Additional observations from a re-analysis of the deposited data

Results flagged for a closer look

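Chromosome X lay outside the autosomal comparison, and the same rule found 95 wide regions with a peak in all tissues there, among 21367 merged regions of X. That was 0.767 per Mb of the chromosome up to its last peak, against 1.46 per Mb on the autosomes. They covered 772 kb, their median width was 6518 bases and the widest had 26503 bases. No control sample bears on this count, and the difference from the autosomes was not tested. The mean covered share, peaks per 10 kb and median relative fold were also examined for a tissue far from the others, by Dixon's gap-to-range ratio at 95%, within tissues whose input was of animal A, those with that of jj8 and those other than brain. None of these 9 sets of values held one, where chance gives about 1 in 20. Sets of all 11 tissues, and the counts of poorly covered regions and missing runs in which cerebellum stood apart, were not examined this way.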

How the results depend on the processing

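The number of wide regions was 3208, and 5075 with a minimum width of 4000 bases and 590 with 10000 bases. It stayed between 3045 and 3372 when gaps of up to 100 bases were merged, lists were shortened, 50% coverage was required for presence or a tissue was left out. The share in the last 10 Mb, 53.4%, was 60% for regions of 10000 bases or more and 55.4% counted in bases, and 48.2% lay in the last 5 Mb. Cerebellum had 74.97% of the runs without 1 tissue, and 66.5% and 84.6% with minimum runs of 250 and 1000 bases. None of the 6 tests passed the threshold under the alternatives that could reach it. Those with 1 brain tissue left out (smallest possible p 0.1) or within a class of shortest peak (0.1 to 0.2) could not, and say nothing on stability. By input animal, animal A minus jj8, covered share went from 1.33 to −2.60 percentage points after subtraction of the other shared regions and to −0.885 and −1.50 within the classes of shortest peak, peaks per 10 kb from −0.341 to 0.363 and 0.219 within classes, and relative fold from 0.113 to −0.125 and −0.144 within classes, and to −0.118 as a percentile. Leaving out each tissue gave −0.486 (without mammary gland) to 0.582 for that fold. For brain against other tissues, covered share went from −0.721 to −6.01 after subtraction of the other shared regions and to 1.76 within the class of 200 bases or more, and leaving out each tissue gave −5.45 to 4.01. Peaks per 10 kb went from −0.931 to 0.478 when each tissue was left out. The cause was not tested. With 1 list a tissue and unknown depth, differences between single tissues have no replicate error, and a gap in a list can be methylated DNA below the unknown threshold of the caller. No paired analysis was possible because each tissue had 1 list.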
